A study of Mus musculus with 6 samples.

Results

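Proximal tubule transporters and brush border genes were examined in cultures of HK-2, a human proximal tubule line made immortal for culture, with and without overexpression of USAG-1. The set held 44 genes chosen by name for their place in glucose, phosphate, ion and organic solute transport, in endocytosis of filtered protein, and in the enzymes of the brush border and the cell interior. Of these, 38 had a row among the 39234 genes of the deposited table, and SLC5A1, SLC5A12, SLC13A1, SLC22A6, SLC22A8 and SLC22A12 were not analysed here. RNA was sequenced from 3 control samples and 3 samples overexpressing USAG-1, all labelled as wild-type HK-2 cells, and the labels name no hypoxia or other treatment. The study's methods state that overexpression in cells was by transient plasmid transfection and that the identity of the line was not checked by STR typing. Whether the sequenced controls carried an empty vector is not given in the sources used here. Both the line and the gene identifiers are human, although mouse is the organism named in the labels. The study's methods speak of biological replicates for most experiments without naming the sequencing, and the labels do not say that these samples came from separate cultures, so p-values measure the spread between these samples, which may be technical.

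The proximal tubule reclaims most of the glucose, phosphate, bicarbonate and amino acids that the glomerulus filters. Its apical membrane is folded into a brush border that carries sodium-coupled carriers, peptidases and the large receptors megalin and cubilin, which take up filtered proteins. Organic anion and cation carriers bring drugs and waste products into the cell, and ABC pumps and MATE carriers pass them into the urine. Cultured proximal tubule cells are known for losing part of this equipment.

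The libraries held between 41236194 and 48699471 counted reads. SOSTDC1, which encodes USAG-1, rose from 1.64 ± 0.243 to 101 ± 10.6 CPM (counts per 1000000 counted reads, with TMM scaling; SD, n = 3 each; adjusted p = 6.96e-07, edgeR), which is the direction the labels give. Control replicate 3 stood apart. Its counts differed from those of the other control libraries by a chi-square per degree of freedom of 42.3 and 42.7, against 6.52 to 8.35 for the other pairs of libraries within a group. Genes of blood cells were present in all libraries. All 15 T and NK cell markers were lower with USAG-1 overexpression, with a summed level of 100 to 117 CPM in control libraries and 11.5 to 16.8 CPM in overexpressing libraries, and none of them was at 0 in every library. Of the other lists, 1 of 8 myeloid markers was higher (CD68) and 2 were lower (LYZ and ITGAM), with sums of 112 to 199 CPM in control and 164 to 184 CPM in overexpressing libraries. None of the B cell markers (2.86 to 4.71 against 2.00 to 4.31 CPM), the platelet and erythroid markers (8.19 to 111 against 8.74 to 77.8 CPM) or the endothelial markers (3.40 to 5.67 against 1.60 to 4.59 CPM) passed the test. In each of the fibroblast (39.8 to 41.5 against 55.9 to 58.0 CPM, COL1A2 at 0) and podocyte lists (29.6 to 32.4 CPM against 43.2 CPM or more) 1 gene was higher. The part of such cells in the results on transporters was not tested.

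HK-2 cells kept 23 of the 38 genes at a mean of 1 CPM or more in control cells, which is 60.5%, compared with 36.7% of all genes in the table. The table also holds pseudogenes, antisense and unnamed genes, so these shares cover unlike kinds of genes. Listed genes without a row are left out of the 60.5%. Another 12 were low, with more than 3 counts in at least 1 library but a control mean under 1 CPM, and 3 had 3 counts or fewer in every library. In these libraries 3 counts correspond to 0.0607 to 0.0718 CPM, the level that a count of 0 still allows, for counting error only. The kept genes were all 4 efflux pumps, all 5 ectoenzymes, 4 acid-base genes, 3 organic ion carriers, 3 metabolic enzymes, the phosphate carriers SLC20A1 and SLC20A2, the glucose carrier SLC5A2 and the endocytic adaptor DAB2. The endocytic receptors LRP2 and CUBN were at or near 0. CPM does not correct for transcript length, so levels of different genes are given side by side without ranking them.

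**Figure D1:**
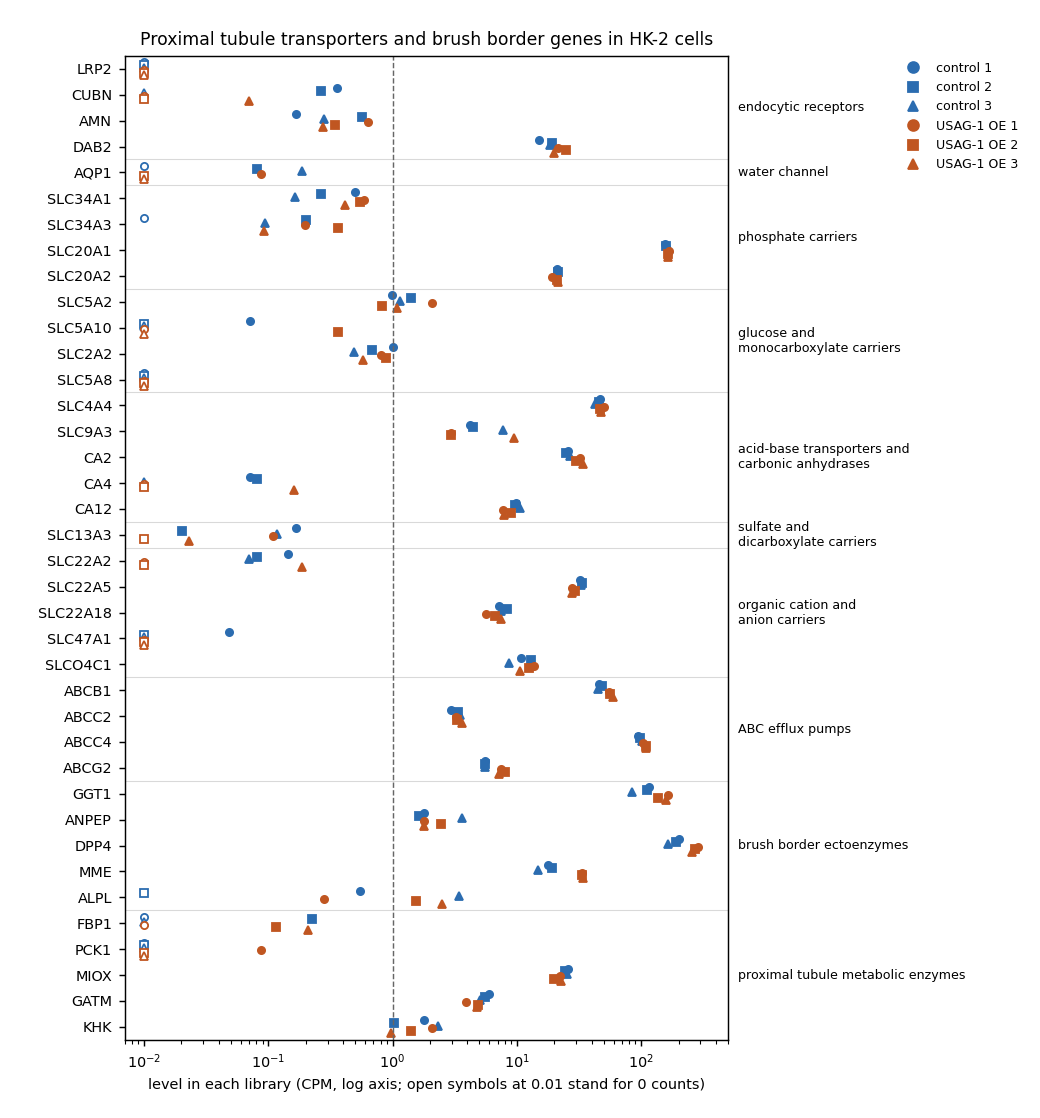
Level of each of the 38 genes in each of the 6 libraries in CPM on a log axis, grouped by role, with blue symbols for control and orange for USAG-1 overexpression, and open symbols at 0.01 for libraries with 0 counts. The dashed line marks 1 CPM, and 23 genes have a control mean at or above it.

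Receptors of protein uptake were mostly near 0. LRP2 (megalin) had 0 counts in all 6 libraries. CUBN (cubilin), its partner, had 15, 13 and 0 counts in control libraries and 0, 0 and 3 in overexpressing libraries. AMN, which carries cubilin to the membrane, had 7, 28 and 12 counts in control and 29, 15 and 12 counts in overexpressing libraries. The pair of libraries with the most AMN counts, control replicate 2 and overexpression replicate 1, were also those with the highest summed level of 6 erythroid genes, at 109 and 77.0 CPM against 7.37 to 18.6 CPM in the other 4 libraries. The part of such cells in the AMN counts was not tested, and this list was chosen after values were seen. Only DAB2, the adaptor that links megalin to clathrin, was kept in this group, at 15.1, 19.2 and 18.3 CPM in control and 21.4, 24.7 and 19.8 CPM in overexpressing libraries. The groups of DAB2 did not overlap, but its log2 fold change of 0.33 (standard error 0.12) did not pass (adjusted p = 0.111, edgeR).

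For water, AQP1, the constitutive water channel of this segment, had 0, 4 and 8 counts in control libraries and 4, 0 and 0 in overexpressing libraries. Phosphate transport divided by family. The brush border phosphate carriers SLC34A1 and SLC34A3 were low, with 7 to 27 counts of SLC34A1 and 0 to 16 counts of SLC34A3 per library. By contrast, SLC20A1 and SLC20A2, the widely used type III phosphate carriers, had 161 ± 6.77 and 21.0 ± 0.655 CPM in control cells (SD, n = 3). With USAG-1 overexpression they had 166 ± 0.596 and 20.5 ± 1.25 CPM (SD, n = 3), and the log2 fold changes of 0.04 (standard error 0.05) and -0.03 (standard error 0.08) were within the spread between samples.

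Of the 4 glucose and monocarboxylate carriers only SLC5A2 was kept, just above 1 CPM. SLC5A2 (SGLT2), the main apical glucose carrier of the early segment, had 0.981, 1.40 and 1.15 CPM in control and 2.07, 0.824 and 1.09 CPM in overexpressing libraries, so the groups overlapped. It overlaps RUSF1 on the opposite strand, which had 66.7 CPM on average, and whether strand was used in counting is not given in the sources used here, so even this low level of SLC5A2 is uncertain. SLC2A2 (GLUT2), the basolateral glucose carrier, had 0.492 to 1.01 CPM in control and 0.579 to 0.892 CPM in overexpressing cells. SLC5A10 had counts in 2 libraries only, 3 in control replicate 1 and 16 in overexpression replicate 2. The lactate carrier SLC5A8 had 0 counts in all 6 libraries.

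Of the 5 acid-base genes 4 were kept. SLC4A4 (NBCe1), the basolateral sodium bicarbonate carrier, had 46.7, 46.2 and 42.7 CPM in control and 50.0, 46.4 and 47.8 CPM in overexpressing libraries, groups that overlapped. The cytosolic carbonic anhydrase CA2 and the membrane-bound CA12 were kept, while CA4, the brush border form, had at most 7 counts in any library. SLC9A3 (NHE3), the apical sodium proton exchanger, had 4.16, 4.41 and 7.71 CPM in control and 2.96, 2.95 and 9.49 CPM in overexpressing libraries. Replicate 3 was thus the highest in each group, and the log2 fold change of -0.08 (standard error 0.47) became 0.27 without control replicate 3 and -0.87 without overexpression replicate 3. SLC9A3 shares its locus with SLC9A3-AS1 and EXOC3 on the opposite strand and with PP7080 on the same strand. PP7080 had 169, 167 and 61 counts in control and 148, 106 and 0 counts in overexpressing libraries. It was lowest, within each group, in the library where SLC9A3 was highest, and SLC9A3-AS1 was also lowest in each of these libraries, at 2.62 and 2.08 CPM. Reads of these genes could be split by the counting, which makes the SLC9A3 level uncertain.

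Sulfate and dicarboxylate transport was represented by SLC13A3 alone, with 0 to 7 counts per library. Among the carriers of organic ions, SLC22A2 (OCT2), the basolateral cation carrier, and SLC47A1 (MATE1), its apical counterpart, had 0 to 8 and 0 to 2 counts per library. The other carriers in this group were kept. SLC22A5 (OCTN2), the carnitine carrier, had 31.9, 33.2 and 33.1 CPM in control and 27.9, 29.1 and 27.5 CPM in overexpressing libraries. Every overexpressing library was below every control library, but the log2 fold change of -0.22 (standard error 0.06) did not pass (adjusted p = 0.0565, edgeR). It passed with DESeq2 (adjusted p = 0.0371), with at least 10 counts required in every library (adjusted p = 0.0496, edgeR) and without control replicate 3 (adjusted p = 0.0346, edgeR). SLCO4C1, a basolateral organic anion carrier, had 8.72 to 12.9 CPM in control and 10.5 to 13.6 CPM in overexpressing cells. SLC22A18 had 7.16 to 8.40 and 5.64 to 7.50 CPM, while its antisense neighbour SLC22A18AS rose from 2.68 ± 0.375 to 5.84 ± 0.150 CPM (SD, n = 3; adjusted p = 0.00340, edgeR). These genes overlap over part of their length, and there their reads cannot be told apart without known strand use.

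Every one of the 4 ABC efflux pumps was kept, and so were all 5 ectoenzymes of the brush border, although ALPL had 0 counts in 1 library and was above 1 CPM in control cells only through control replicate 3 (0.551, 0 and 3.44 CPM). Without that library 22 genes were kept, without ALPL. Among the metabolic enzymes, MIOX (myo-inositol oxygenase, restricted largely to this segment), GATM (the first enzyme of creatine synthesis) and KHK (ketohexokinase) were kept at 25.2 ± 0.768, 5.54 ± 0.438 and 1.72 ± 0.647 CPM in control cells (SD, n = 3). The gluconeogenic enzymes were near 0. PCK1 had 4 counts in overexpression replicate 1 and 0 in the other 5 libraries, and FBP1 had 0, 11 and 0 counts in control and 0, 5 and 9 in overexpressing libraries.

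The label of the cells as proximal tubule epithelium was checked against further markers. PAX8, a transcription factor of kidney epithelium, had 375 CPM on average in control cells, and the keratin genes KRT8 and KRT18 had 1080 and 324 CPM. HNF4A, which drives many proximal tubule genes, had at most 0.0957 CPM in any library. CDH1 (E-cadherin), also on the epithelial list, was near 0 and was not tested. It had 0, 7 and 5 counts in control and 5, 9 and 0 counts in overexpressing libraries. Of the 5 epithelial genes tested none passed, with sums of 1435 to 1877 and 1661 to 1760 CPM. Of 8 markers of later nephron segments, SCNN1A (116 CPM) and AVPR2 (1.65 CPM) were kept in control cells, SCNN1G and KCNJ1 were at 0 in every library, and none of the 3 tested passed (sums of 116 to 121 and 112 to 123 CPM). The RNA thus carried kidney epithelial genes, while CDH1 and several defining proximal tubule genes were absent or near 0.

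USAG-1 overexpression was compared with control for the 26 genes that passed the filter on low counts, which included all 23 kept genes. Past an adjusted p of 0.05, 6 genes rose and 0 fell. Those that rose were MME, DPP4, GGT1, ABCB1, ABCG2 and CA2, which make up 23.1% of the 26, whereas 8.95% of all genes tested rose. Among all genes with at least 1 CPM in control cells 11.0% rose and 8.32% fell, while 6 of the 23 kept members rose (26.1%). Lower genes made up 6.91% of all genes tested, and 3 members (SLC22A5, MIOX and CA12) were lower at an unadjusted p under 0.05. By DESeq2 1 member was lower, by limma-voom none. The groups did not overlap for 12 of the 26 genes (46.2%), compared with 37.6% of all genes tested. Their log2 fold changes had a median of 0.10, with 17 genes above and 9 below 0, against -0.02 over all genes tested. The number that rose depended on single libraries. It was 2 without overexpression replicate 1 or replicate 3, 3 without control replicate 1 or overexpression replicate 2, 4 without control replicate 2, and 7 without control replicate 3, while MME and DPP4 passed in all 16 alternatives.

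**Figure D2:**
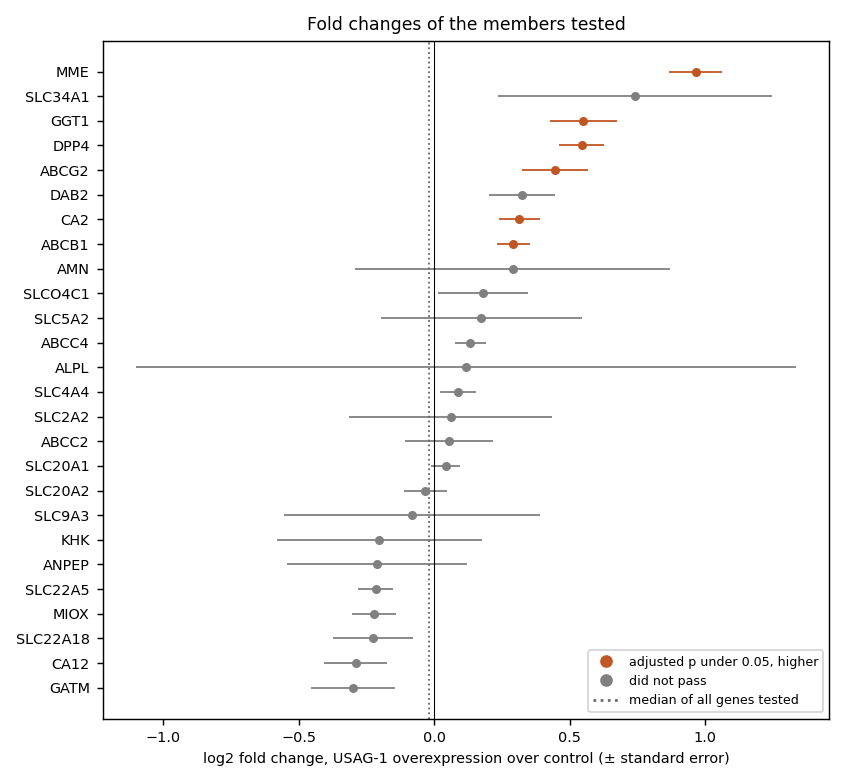
Log2 fold change of USAG-1 overexpression over control, with its standard error, for the 26 genes tested, in orange where the adjusted p was under 0.05. The 6 orange genes lie between 0.29 (ABCB1) and 0.97 (MME), and ALPL has the widest error bar.

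Of the 5 brush border ectoenzymes 3 rose, and MME had the largest log2 fold change of the genes that passed. MME (neprilysin, ENSG00000196549; chromosome 3, 155024124 to 155183704, plus strand, hg38), a membrane peptidase, had 17.7, 19.0 and 14.9 CPM in control libraries and 33.5, 33.1 and 34.2 CPM in overexpressing libraries. All overexpressing libraries were above all control libraries by far more than the spread within a group. The rise was 1.95-fold, or 0.97 on the log2 scale with a standard error of 0.10 (adjusted p = 0.000942, edgeR), and it ranged from 0.87 to 1.04 across the 16 alternatives. DPP4 (dipeptidyl peptidase IV, ENSG00000197635; chromosome 2, 161992245 to 162074215, minus strand) had 201, 191 and 165 CPM in control and 285, 271 and 256 CPM in overexpressing libraries. Control replicate 3 was the lowest of the 6 for both genes. DPP4 rose 1.46-fold, or 0.54 on the log2 scale with a standard error of 0.08 (adjusted p = 0.00457, edgeR), and 0.47 to 0.61 across the alternatives. DPP4 is also carried by T cells, and it was higher in the libraries where all 15 T and NK cell markers were lower. The part of T cell RNA in the DPP4 counts was not tested.

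GGT1 (gamma-glutamyltransferase 1, ENSG00000100031; chromosome 22, 24594811 to 24629001, plus strand), which cleaves extracellular glutathione, had 116, 112 and 85.0 CPM in control and 164, 137 and 158 CPM in overexpressing libraries. The groups did not overlap, although each varied more than those of MME. It rose 1.46-fold, or 0.55 on the log2 scale with a standard error of 0.12 (adjusted p = 0.0208, edgeR). The call was lost without overexpression replicate 1 (0.50) or replicate 3 (0.53). GGT1 has near-identical copies, such as GGT2P and GGT3P, and shares its strand and locus with an unnamed gene at 13.5 CPM, so its counts are uncertain. ANPEP (aminopeptidase N) and ALPL (tissue-nonspecific alkaline phosphatase), the remaining ectoenzymes, did not pass.

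ABC pumps showed smaller rises. ABCB1 (P-glycoprotein, ENSG00000085563; chromosome 7, 87503017 to 87713323, minus strand), which exports many drugs, had 46.1, 48.3 and 44.6 CPM in control and 54.8, 56.6 and 58.8 CPM in overexpressing libraries. The groups were separate, with a rise of 1.22-fold, or 0.29 on the log2 scale with a standard error of 0.06 (adjusted p = 0.0171, edgeR). The call was lost without control replicate 1 or any 1 of the overexpressing libraries, with values of 0.27 to 0.32, and with an offset for genomic span (0.18). ABCG2 (ENSG00000118777; chromosome 4, 88090150 to 88231628, minus strand), a urate and drug exporter, had 5.51, 5.51 and 5.58 CPM in control and 7.44, 7.96 and 7.20 CPM in overexpressing libraries. It rose 1.36-fold, or 0.45 on the log2 scale with a standard error of 0.12 (adjusted p = 0.0423, edgeR), and passed in 8 of 16 alternatives. It lost the call when any library other than control replicate 3 was left out (0.41 to 0.48), and with a replicate block (0.45, adjusted p = 0.0835, edgeR). ABCC4 (MRP4), the apical anion pump, had 95.0, 98.0 and 101 CPM in control and 103, 110 and 109 CPM in overexpressing libraries, groups that did not overlap. Its log2 fold change of 0.13 (standard error 0.06) did not pass (adjusted p = 0.162, edgeR) but did without control replicate 3 (0.16, adjusted p = 0.0278, edgeR). For ABCC2 (MRP2) the levels were 3.27 ± 0.293 and 3.39 ± 0.213 CPM (SD, n = 3), and the groups overlapped.

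CA2 (ENSG00000104267; chromosome 8, 85463968 to 85481493, plus strand), which makes bicarbonate and protons from carbon dioxide, had 25.6, 24.7 and 26.8 CPM in control and 32.0, 30.0 and 33.8 CPM in overexpressing libraries. It rose 1.24-fold, or 0.31 on the log2 scale with a standard error of 0.07 (adjusted p = 0.0260, edgeR). The call was lost when any library other than control replicate 3 was left out, with values of 0.28 to 0.36. CA12 had lower values in overexpressing libraries, at 7.68, 8.97 and 7.87 CPM against 9.77, 9.66 and 10.6 CPM, without passing (log2 fold change -0.29, standard error 0.12, adjusted p = 0.136, edgeR).

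**Figure D3:**
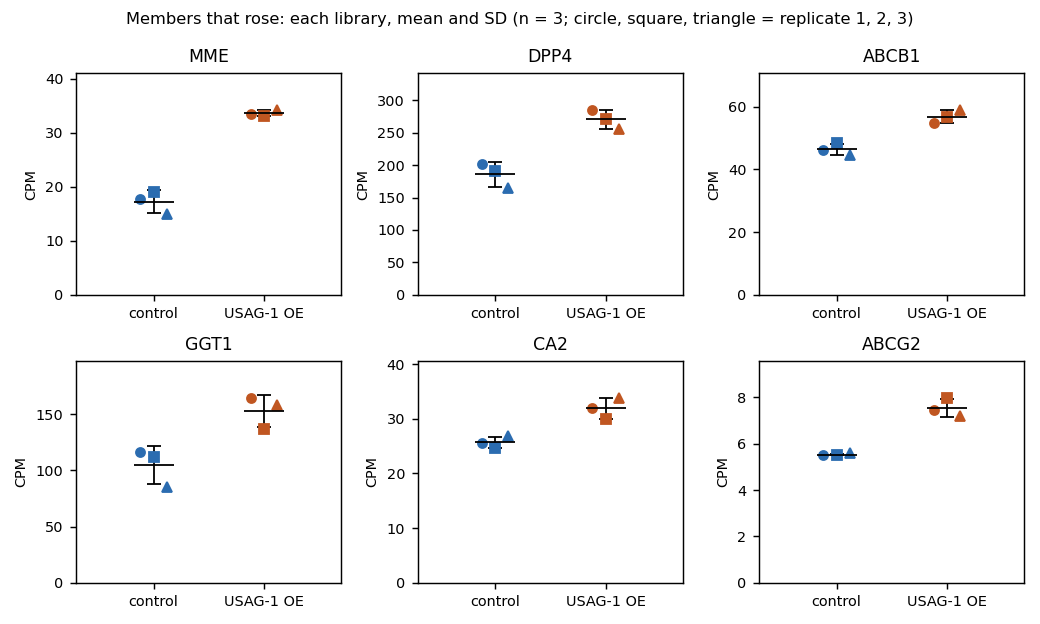
CPM of the 6 genes that rose, with 1 symbol per library (circle, square and triangle for replicates 1, 2 and 3) and the mean with its SD for each group of 3. No panel has an overlap between control and USAG-1 overexpression, and MME has the largest ratio, 1.95-fold.

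All 3 metabolic enzymes tested had log2 fold changes below 0, and none passed. MIOX had 25.8, 24.4 and 25.5 CPM in control and 22.3, 19.9 and 22.7 CPM in overexpressing libraries, and GATM had 5.96, 5.57 and 5.08 against 3.87, 4.83 and 4.79 CPM. Neither overlapped between groups, but the log2 fold changes of -0.22 (standard error 0.08, adjusted p = 0.103, edgeR) and -0.30 (standard error 0.16, adjusted p = 0.236, edgeR) missed the threshold. KHK, at 1.03 to 2.32 and 0.972 to 2.09 CPM, overlapped.

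Several genes varied more within a group than between groups. ALPL had 23, 0 and 147 counts in control and 13, 67 and 108 counts in overexpressing libraries. Its 3 highest libraries, control replicate 3 and overexpression replicates 2 and 3, were also the 3 with the highest summed level of 10 neutrophil genes, at 135, 84.6 and 74.2 CPM against 21.6 to 39.9 CPM in the other libraries. This list was likewise chosen after values were seen, and none of its genes was at 0 in any library. For example, CSF3R, a receptor of neutrophils, had 25.1, 18.1 and 16.2 CPM in these 3 libraries and 2.50 to 6.65 CPM in the others. MMP9, MNDA, CXCR1 and AQP9 of the same list did not have these 3 libraries as their highest. MNDA had 4.97, 2.68 and 1.55 CPM in them and 2.52 to 4.00 CPM in the others. For MMP9 the levels were 8.46, 6.06 and 6.34 CPM against 4.40 to 7.41 CPM. ANPEP, which myeloid cells also carry, was highest in control replicate 3 (3.61 CPM) and overexpression replicate 2 (2.47 CPM) and lay between 1.62 and 1.81 CPM elsewhere. Its log2 fold change was -0.21 with all libraries and 0.25 without control replicate 3. The part of neutrophil RNA in the ALPL and ANPEP counts was not tested. Neutrophils also carry MME, whose lowest level, 14.9 CPM, was in control replicate 3, and the part of neutrophil RNA in its counts was not tested either. In such bulk RNA, fewer cells of a type and less RNA per cell cannot be told apart.

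**Figure D4:**
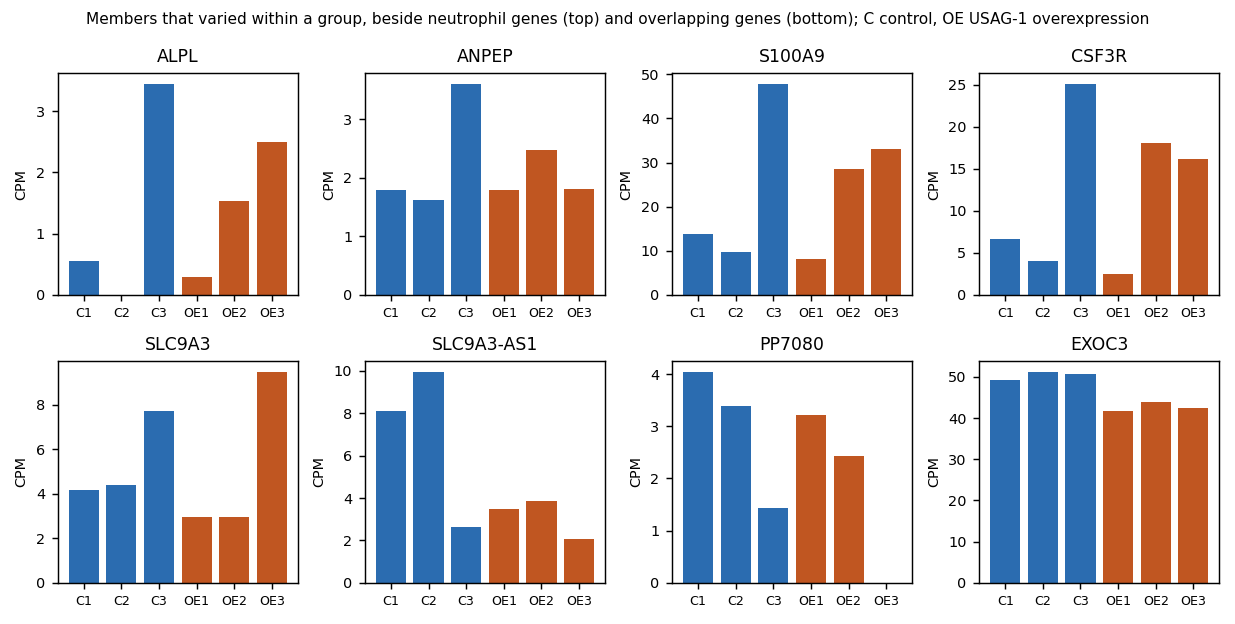
CPM in each library for ALPL and ANPEP beside the neutrophil genes S100A9 and CSF3R (top) and for SLC9A3 beside the genes that overlap it (bottom), with C for control and OE for USAG-1 overexpression. ALPL, S100A9 and CSF3R are highest in C3, OE2 and OE3, and SLC9A3 is highest in C3 and OE3, where SLC9A3-AS1 and PP7080 are lowest within their group. Some neutrophil genes that are not shown, such as MNDA and MMP9, did not have this order.

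Other genes of the proximal tubule were then counted. Of 97 further genes, 90 had a row, 47 of these were at 1 CPM or more in control cells and 56 were tested. Their median log2 fold change was 0.03, and 13 rose and 3 fell, where 8.95% and 6.91% of all genes tested did. The number that rose was 6 without overexpression replicate 1 or replicate 3, 8 without control replicate 2 or overexpression replicate 2, and 15 without control replicate 3. Without that library 6 fell.

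The scaffold of the brush border had 17 genes, of which 8 were tested and 4 rose, with a list median of 0.33 on the log2 scale. PLS1, which bundles actin in microvilli, rose from 44.3 ± 2.08 to 69.8 ± 1.75 CPM (SD, n = 3; adjusted p = 0.000693, edgeR), and EPS8, which caps actin at the tips of microvilli, from 73.1 ± 6.47 to 112 ± 1.45 CPM (adjusted p = 0.00170, edgeR). The others were EZR (ezrin, 767 ± 82.5 to 1047 ± 7.65 CPM), which ties membrane proteins to actin, and the motor MYO6, whose call was lost in 8 of 16 alternatives. VIL1 (villin), the classical marker of microvilli, had counts in a single library (0.109 CPM), and PDZK1, which anchors SLC34A1, had 53.7 ± 5.42 and 52.9 ± 1.73 CPM (SD, n = 3).

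All 12 genes of the endocytic machinery were tested and kept, and 3 of them rose: CLTC (clathrin heavy chain), from 508 ± 25.6 to 676 ± 4.01 CPM (SD, n = 3; adjusted p = 0.00257, edgeR), RAB5A, a GTPase of early endosomes, from 38.5 ± 1.98 to 48.8 ± 1.53 CPM (adjusted p = 0.0114, edgeR), and CLCN5, an endosomal chloride transporter. The call for RAB5A was lost in 2 of 16 alternatives and that for CLCN5 in 9.

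Among 11 genes of the basolateral membrane, 10 were tested, 2 rose and 1 fell. ATP1B1, the beta subunit of the sodium pump, rose from 115 ± 0.675 to 168 ± 1.39 CPM (SD, n = 3; log2 fold change 0.55, adjusted p = 0.000609, edgeR). FXYD2, the gamma subunit that modulates the same pump, fell from 74.4 ± 1.90 to 44.3 ± 1.99 CPM (SD, n = 3; log2 fold change -0.75, adjusted p = 0.000421, edgeR). KCNJ16, a basolateral potassium channel, rose from 5.31 ± 1.16 to 9.61 ± 0.736 CPM (SD, n = 3; adjusted p = 0.0164, edgeR), a call lost in 3 of 16 alternatives.

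Of the 16 further carriers tested, 3 rose and 2 fell. SLC22A4 (OCTN1), the ergothioneine carrier and closest relative of SLC22A5, fell from 11.7 ± 1.04 to 5.09 ± 0.624 CPM (SD, n = 3), a level 2.29-fold lower (adjusted p = 0.00164, edgeR). ABCC3 (MRP3), a basolateral anion pump, fell from 41.0 ± 5.64 to 23.1 ± 1.55 CPM (SD, n = 3; adjusted p = 0.00254, edgeR), whereas ABCC1 (MRP1) rose from 146 ± 1.61 to 181 ± 4.31 CPM (adjusted p = 0.00622, edgeR), a call lost in 1 of 16 alternatives. SLC2A5 (GLUT5), the fructose carrier, rose from 1.51 ± 0.118 to 3.12 ± 0.626 CPM (SD, n = 3; adjusted p = 0.0153, edgeR), a call lost in 4 of 16 alternatives.

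In the list of further enzymes 10 of 27 genes were tested, with a median log2 fold change of -0.28. Of 8 transcription factors of the proximal tubule, 5 were tested and 3 rose: PAX8 (log2 fold change 0.26, adjusted p = 0.0114, edgeR), PPARA (0.48, adjusted p = 0.0308, edgeR) and the bile acid receptor NR1H4, from 0.280 to 1.53 CPM on average (adjusted p = 0.00321, edgeR). PAX8 lost the call in 4 and PPARA in 7 of 16 alternatives, and NR1H4 in 0 of 15.

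**Figure D5:**
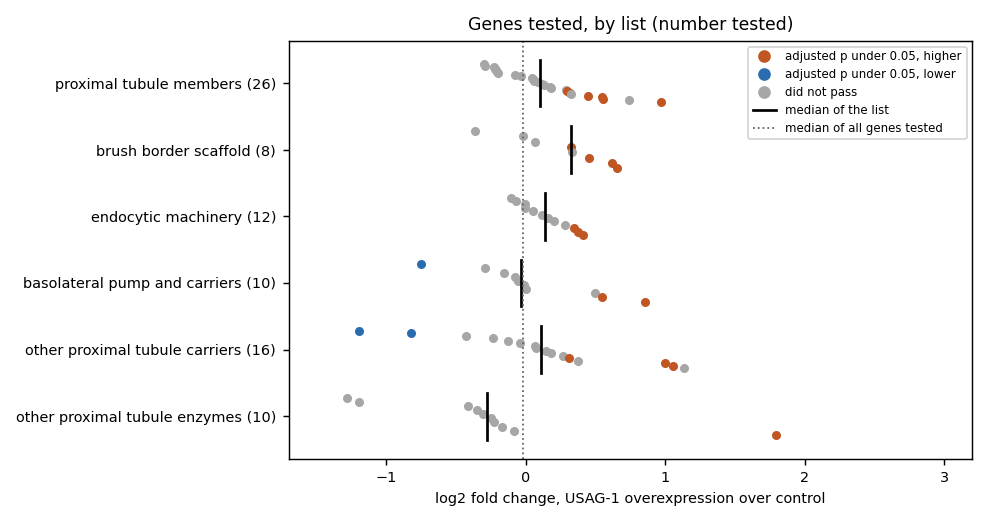
Log2 fold change of each gene tested, by list, with orange and blue for genes that rose and fell at an adjusted p under 0.05, a black bar at the median of each list and a dotted line at the median of all genes tested (-0.02). The 26 members have 6 orange and no blue points, and the brush border scaffold has the highest median, 0.33.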

How the data were processed

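RNA of 6 HK-2 samples was measured, 3 control and 3 with USAG-1 overexpression, grouped by sample title. The authors deposited 1 table of whole-number read counts per gene, not normalized, although its name speaks of FPKM. Per the labels, the submitters' processing notes name hg38, cutadapt 1.9 and FastQC; the aligner, counter, annotation and use of strand are not given in the sources used here. Positions are as in the table.

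Counts were filtered (filterByExpr), scaled by TMM and tested with the quasi-likelihood method of edgeR 4.0.16 in R 4.3.3, adjusting p by Benjamini-Hochberg over 18188 genes, at an adjusted p under 0.05 and any fold. The study's methods name DESeq2 for public expression data; it was run here as an alternative (1.42.0), as was limma-voom (limma 3.58.1). Standard errors were obtained from the F statistic (fold change on the log2 scale over the root of F). The code was tested on simulated data. The other alternatives were scalings, count filters, thresholds, a replicate block, an offset for genomic span, and each library left out in turn. Those for genes outside the 44 were added after the data were seen.

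The 44 genes and the lists were chosen with earlier results of these data known. Values per library were given for genes that passed, the highest gene of each role and kept genes that describe their role; of each further list, up to 2 genes per direction with the smallest p. ANPEP, ALPL, SLC9A3, EZR, MYO6, VIL1, PDZK1, CLCN5, CDH1 and the transcription factors, neutrophil, erythroid and overlapping genes were named after their values were seen. The reference sequences given were for mouse and were not used here. Some genes of the further lists are counted but not reported here by name.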

Additional observations from a re-analysis of the deposited data

How the results depend on the processing

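The 6 genes that rose were the same 6 with DESeq2 size factors, library sizes alone, library sizes without SOSTDC1 or without mitochondrially encoded genes, DESeq2, limma-voom, at least 10 counts in every library and an adjusted p under 0.1. The number was 5 without the filter on low counts, 4 with the offset for genomic span (without ABCB1 and ABCG2), 3 at a log2 fold change over 0.5, and 2 to 7 with a library left out. The number that fell was 0, but 1 (SLC22A5) with DESeq2, at least 10 counts in every library or an adjusted p under 0.1, and 0 to 1 with a library left out. The median log2 fold change of the genes tested ranged from 0.04 to 0.16, and the number kept from 20 (2 CPM) to 24 (0.5 CPM). Of the further genes, 6 to 15 rose and 3 to 6 fell with a library left out. All genes called numbered 5091 without control replicate 3, 1137 without overexpression replicate 2 and 2885 with all libraries; the cause was not tested.

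Same-numbered libraries did not deviate together (correlations of 0.07, -0.05 and 0.04), so the numbers were not taken as pairs. With the replicate block 5 genes rose, without ABCG2, 0 fell, and the median was 0.09.

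Of the log2 fold changes of the 26 genes under the alternatives, 372 kept their direction and side of the threshold, 20 lost the call, 4 gained it and 17 changed sign, 0 of these in a gene that passed. SLC4A4 became -0.051 with the span offset. With a library left out, AMN ranged from -0.13 to 0.89, SLC20A2 from -0.061 to 0.019, SLC5A2 from -0.30 to 0.43, SLC2A2 from -0.15 to 0.36, SLC9A3 from -0.87 to 0.27, ABCC2 from -0.014 to 0.12, ANPEP from -0.42 to 0.25, ALPL from -0.55 to 2.43 and KHK from -0.53 to 0.083. Genes with few counts, such as AMN and SLC34A1, allow no firm statement at this depth.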
